A study of Mus musculus with 57 samples.

Results

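The histone deacetylase (HDAC) family was examined in 3 brain regions of voluntarily drinking mice. Members were taken by gene symbol (Hdac1, Hdac2, Hdac3, Hdac5, Hdac6, Hdac7, Hdac8, Hdac10 and Hdac11), and every probeset annotated to 1 of them was used. A probeset is a set of short probes on the array that together measure the RNA of a gene. The rule found 9 probesets of 7 genes among 22626 probesets, and Hdac8 and Hdac10 matched no probeset in the annotation used. Hdac7 and Hdac11 had 2 probesets each and the other 5 genes had 1 each. All 9 probesets passed the filter on low values, which required a log2 signal of 4.5 on at least 1 array.

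HDACs remove acetyl groups from lysines of histones and of other proteins, and on histone tails this is linked to tighter chromatin and lower transcription. Class I holds Hdac1, Hdac2, Hdac3 and Hdac8, of which Hdac1, Hdac2 and Hdac3 work in the nucleus inside corepressor complexes. The class IIa enzymes taken here (Hdac5 and Hdac7) have weak catalytic activity of their own. They move between nucleus and cytoplasm when calcium-dependent kinases phosphorylate them. Hdac4 and Hdac9, which the study also lists as class II, were not among the symbols taken. Class IIb enzymes (Hdac6 and Hdac10) act largely in the cytoplasm, and Hdac11 alone forms class IV.

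The arrays came from young male C57BL/6NCrl mice, an inbred strain known for high ethanol preference. All mice chose between 10% (w/v) ethanol and tap water in 16 sessions of 18 hours, and tissue was taken 6 days after the last session, so no group was ethanol-naive. The groups were the nucleus accumbens (NAc), the ventral midbrain (VMB), a dissection that contains the ventral tegmental area, and the prefrontal cortex (PFC), with 19 arrays each and RNA of 1 mouse on each array. The regions were taken from the same animals, but the labels do not say which arrays share a mouse, so the main fit treated the 57 arrays as unpaired, and a fit with the number in the titles as a block gave the same HDAC calls. Intake per mouse is not among the labels that set the groups, so the relation of HDAC levels to intake was not analysed here. Replicates are mice, and each p-value of a region difference measures the spread between mice within a region. Arrays of 1 mouse in different regions were counted as independent.

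Arrays of a region resembled each other closely, with a mean correlation to the other arrays of the region between 0.982 and 0.993 in NAc, between 0.985 and 0.992 in VMB and between 0.989 and 0.995 in PFC. The label of 1 PFC array (number 20) was contradictory, since its title names PFC and its other region fields name the ventral tegmental area. It correlated at 0.957 with NAc, 0.941 with VMB and 0.994 with PFC arrays, its cortical excitatory neuron markers averaged 8.44 log2 units and its dopamine neuron markers 4.66, and it was kept as PFC. Region markers fitted the labels. Striatal projection neuron markers (6 of 9 tested) averaged 10.09 in NAc, 7.33 in VMB and 6.88 in PFC, and dopamine neuron markers (5 of 7 tested) averaged 5.85 in NAc, 7.40 in VMB and 4.62 in PFC. In NAc 51.2% of the variance between arrays lay on the first principal component (PC1), against 32.4% in VMB and 17.2% in PFC, and 3 NAc, 6 VMB and 2 PFC arrays stood apart on it by more than 1.4 SD. This cutoff is low and was chosen after the data were seen, so the arrays are not shown to be outliers. In VMB they lay at both ends, between 1.43 and 1.68 SD and at -1.49 and -1.51 SD.

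The regions differed in the overall scale of the deposited values. Array medians lay between 6.26 and 6.32 in NAc, between 5.79 and 5.86 in VMB and between 5.66 and 5.7 in PFC, and the median over tested probesets shifted by 0.72 for NAc minus PFC, 0.18 for VMB minus PFC and 0.55 for NAc minus VMB. The arrays were therefore brought to 1 common distribution by quantile normalization, which left median differences of 0.03, 0.02 and 0.02 in the same order. Levels and differences below are on this normalized log2 scale unless the deposited scale is named, and a difference thus says how a gene stood relative to the bulk of the array. The deposited scales look as if the signals had been calculated for each region apart, which was not tested. Such a step cannot be told apart from region here, and normalizing the deposited values may not undo it. The p-values do not cover it. The comparisons with PFC share the PFC arrays, and those with NAc or VMB share these in the same way.

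On the normalized scale, the HDAC probesets that passed did not all share 1 direction in any comparison of regions. In VMB relative to PFC, 6 of 9 probesets were higher, 1 was lower and 2 did not pass the test (limma, Benjamini-Hochberg adjusted p under 0.01). The lower probeset was Hdac2, so the mixed direction in this comparison rests on Hdac2 alone. With array weights, or without the arrays that stood apart on PC1, 6 were higher and 0 lower. Of all tested probesets 72.8% passed in this comparison, 37.7% higher and 35.2% lower. As deposited, 8 HDAC probesets were higher and Hdac2 did not pass, where 52.2% of all probesets were higher and 24.2% lower. Against PFC, NAc had 4 HDAC probesets higher and 2 lower, and 3 did not pass, where 72.5% of all probesets passed, 38.6% higher and 33.9% lower. As deposited, NAc exceeded PFC in all 9 HDAC probesets, where 86.8% of all probesets were higher and 5.29% lower. Against VMB, NAc had 1 HDAC probeset higher and 5 lower, and 3 did not pass, where 74.7% of all probesets passed, 39.0% higher and 35.7% lower. As deposited, NAc exceeded VMB in 6 of them and was lower in none, where 78.3% of all probesets were higher and 9.71% lower. In each comparison the total of HDAC probesets that passed, 6 or 7 of 9, was near the share of all probesets. Of those that passed, most were higher in VMB against PFC and most were lower in NAc against VMB, and with 9 probesets no difference from the background was tested. The median HDAC difference was 0.29 for VMB minus PFC, 0.13 for NAc minus PFC and -0.15 for NAc minus VMB. Beyond a minimum difference of 0.5, only the Hdac7 probeset 1420813_at in VMB against PFC and no other HDAC probeset in any comparison passed, whereas 19.1% of all probesets passed that rule in VMB against PFC, 15.1% in NAc against PFC and 19.6% in NAc against VMB. On the normalized scale no HDAC probeset was free of overlap between NAc and PFC arrays, where 21.9% of all probesets were, but as deposited 7 of 9 were, where 61.3% of all were. As deposited, 2 (Hdac3 and Hdac7 1420813_at) were free of overlap between VMB and PFC, where 27.3% of all were, and 1 (Hdac6) between NAc and VMB, where 43.4% of all were.

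**Figure D1:**
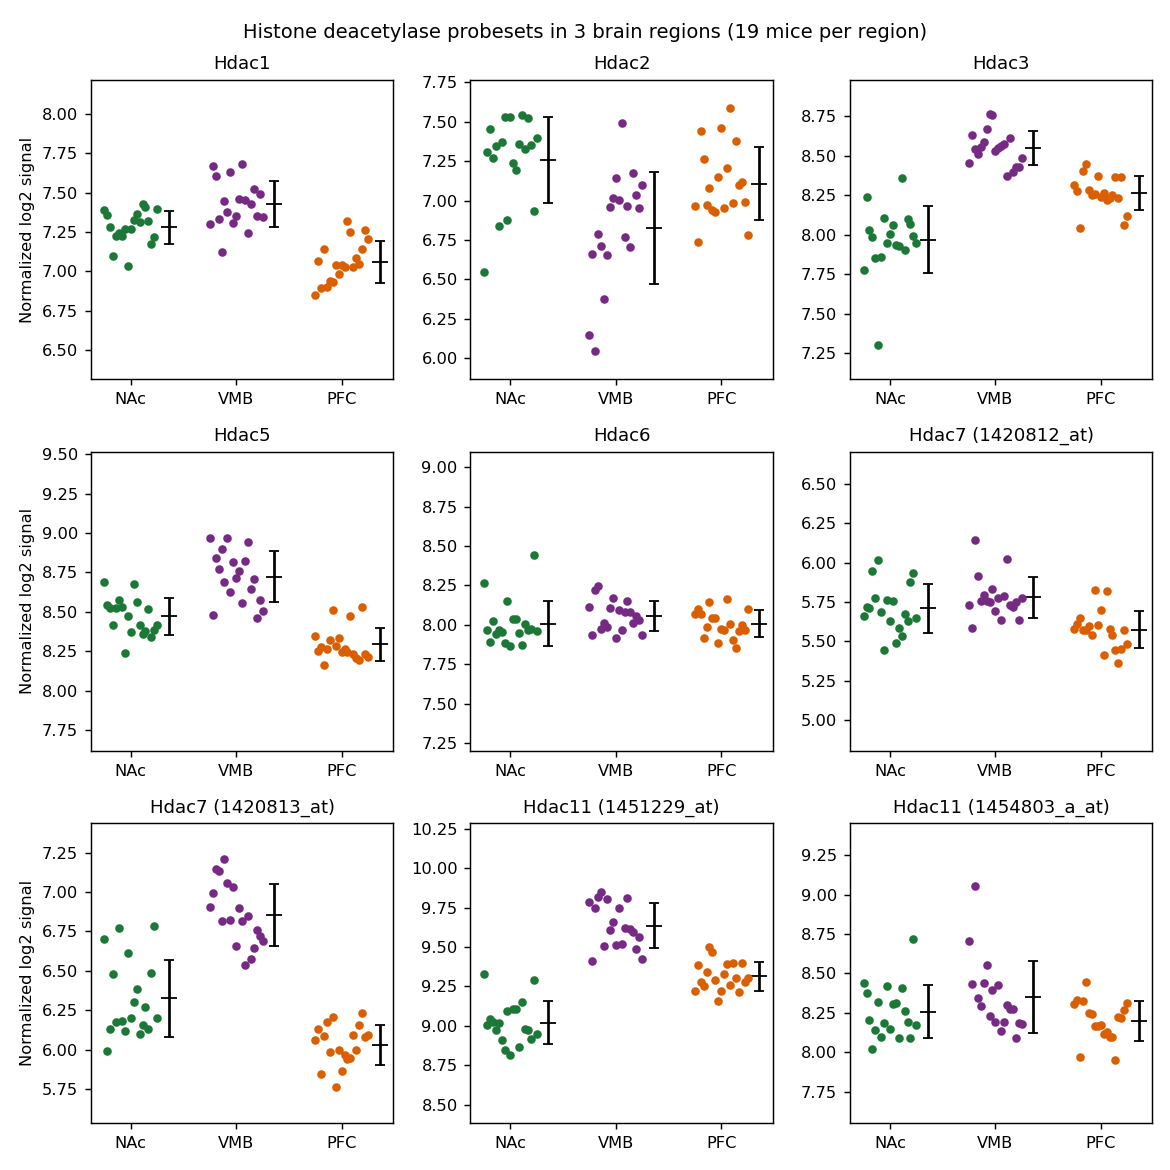
Normalized log2 signal of the 9 HDAC probesets in NAc, VMB and PFC, with 1 point per mouse (19 per region) and the mean with SD beside each group; every panel spans the same height in log2 units. Hdac7 (1420813_at) in VMB lies wholly above PFC, and Hdac3 and Hdac11 (1451229_at) in NAc lie wholly below VMB on this scale (but overlap VMB as deposited), while the Hdac6 groups overlap.

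Among class I enzymes, Hdac1 and Hdac2, close paralogs that occupy the same Sin3, NuRD and CoREST complexes, were ordered differently across regions. Hdac1 had a lowest, median and highest level of 7.04, 7.28 and 7.42 in NAc, 7.12, 7.43 and 7.68 in VMB, and 6.85, 7.04 and 7.32 in PFC. VMB arrays were high and PFC arrays low, with 15 of 19 VMB arrays above every PFC array. Hdac1 was higher in VMB than in PFC by 0.37 (SE 0.04, 95% CI 0.28 to 0.45, limma adjusted p = 1.57e-11), and NAc exceeded PFC by 0.22 (SE 0.04, adjusted p = 5.91e-06). The NAc minus VMB difference of -0.15 (adjusted p = 0.00150) turned to 0.42 as deposited and did not pass after subtraction of array medians (-0.04, adjusted p = 0.375).

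Hdac2 was the most variable HDAC probeset between mice in every region. It ran from 6.55 through a median of 7.35 to 7.54 in NAc, from 6.05 through 6.95 to 7.50 in VMB, and from 6.74 through 7.08 to 7.59 in PFC. All 3 ranges overlapped, and the VMB arrays reached lowest. On the deposited values the SD of Hdac2 was 0.33 in NAc, 0.37 in VMB and 0.24 in PFC. These SDs lay at the 94.1st, 95.9th and 92.9th percentile of the SDs of all tested probesets. By contrast the SD percentile of Hdac6, the cytoplasmic tubulin deacetylase, was 12.9 in NAc, 5.32 in VMB and 9.79 in PFC.

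Hdac2 was higher in NAc than in VMB by 0.43 (SE 0.09, 95% CI 0.25 to 0.62, adjusted p = 2.50e-05), and in the same direction as deposited (0.98). Its VMB minus PFC difference of -0.28 (SE 0.09, adjusted p = 0.00484) did not pass as deposited (-0.18, adjusted p = 0.0900), with array weights (-0.17, adjusted p = 0.0333) or without the arrays that stood apart on PC1, namely numbers 1, 6 and 19 of NAc, 1, 3, 6, 7, 17 and 19 of VMB and 3 and 14 of PFC (-0.11, adjusted p = 0.152). The NAc minus PFC difference of 0.15 (adjusted p = 0.119) passed without these arrays (0.29, adjusted p = 9.05e-05) and with array weights (0.27, adjusted p = 4.17e-04). The correlation of Hdac2 with PC1 was -0.93 in NAc and -0.76 in VMB, against 0.25 in PFC, and the part of PC1 in the Hdac2 values was not tested beyond leaving these arrays out.

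A comparison that does not depend on the overall scale was obtained by subtracting Hdac1 from Hdac2 within each array. This quantity was chosen after the region orders of both genes were seen, so it is given as a description with no test. On the deposited scale Hdac2 minus Hdac1 had a lowest, median and highest value of -0.84, 0.05 and 0.27 in NAc, -1.46, -0.52 and -0.17 in VMB, and -0.42, 0.05 and 0.54 in PFC. The value was below 0 in every VMB array. The mean was -0.02 ± 0.27 in NAc, -0.58 ± 0.35 in VMB and 0.05 ± 0.25 in PFC (SD, n = 19 each). The difference of means was -0.62 for VMB minus PFC, 0.56 for NAc minus VMB and -0.06 for NAc minus PFC, and without the arrays that stood apart it was -0.48, 0.55 and 0.07. These values do not say which RNA is more abundant, since probesets bind RNA with unequal strength.

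Hdac3, the catalytic subunit of the NCoR/SMRT corepressor complex, was the class I member with the widest spread of region means. Its level was 7.30, 7.98 and 8.36 (lowest, median, highest) in NAc, 8.37, 8.55 and 8.77 in VMB, and 8.04, 8.26 and 8.45 in PFC. NAc arrays did not overlap VMB arrays, a separation found for 23.1% of all tested probesets, although the deposited ranges overlapped. Hdac3 was higher in VMB than in PFC by 0.29 (SE 0.05, adjusted p = 4.63e-07), and by 0.34 as deposited. It was lower in NAc than in VMB by 0.58 log2 units (95% CI -0.68 to -0.48, adjusted p = 1.35e-16) and lower in NAc than in PFC by 0.29 (SE 0.05, adjusted p = 2.67e-07), while the deposited differences were 0.03 and 0.37, each smaller than the shift of all probesets. The suffix of its probeset (1426437_s_at) marks probes that may bind more than 1 transcript, so the Hdac3 values are less certain than the others. NAc array 6 lay far below the other NAc arrays.

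Class IIa enzymes bind the transcription factor Mef2 and repress its targets until they leave the nucleus. Hdac5, which has been studied in NAc for its part in drug reward, had levels of 8.24, 8.48 and 8.69 in NAc, 8.46, 8.71 and 8.97 in VMB, and 8.16, 8.26 and 8.53 in PFC. VMB arrays were the highest, and 16 of 19 of them exceeded every PFC array. Hdac5 was higher in VMB than in PFC by 0.43 (SE 0.04, 95% CI 0.34 to 0.52, adjusted p = 9.04e-14), and in NAc than in PFC by 0.18 (SE 0.04, adjusted p = 2.08e-04). The NAc minus VMB difference was -0.25 (adjusted p = 3.71e-07), but 0.37 as deposited and -0.09 (adjusted p = 0.0423) after subtraction of array medians.

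Hdac7, known for its roles in endothelial cells and thymocytes, gave the largest normalized region difference among the HDACs. Its brighter probeset, 1420813_at, had levels of 5.99, 6.20 and 6.78 in NAc, 6.54, 6.82 and 7.21 in VMB, and 5.76, 6.06 and 6.23 in PFC. VMB and PFC arrays did not overlap, which held for 23.9% of all tested probesets. The probeset was 1.77-fold higher in VMB than in PFC (log2 difference 0.82, SE 0.06, 95% CI 0.70 to 0.95, adjusted p = 1.78e-18, and adjusted p = 1.02e-05 against a minimum difference of 0.5), and the difference was 0.93 as deposited. NAc was above PFC by 0.29 (SE 0.06, adjusted p = 2.78e-05). NAc was below VMB, with a difference of -0.53 (adjusted p = 2.55e-11) that was -0.01 (adjusted p = 0.838) as deposited.

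The dimmer Hdac7 probeset, 1420812_at, showed a smaller difference. It lay between 5.44 and 6.01 in NAc, between 5.59 and 6.14 in VMB and between 5.37 and 5.83 in PFC, and all ranges overlapped. It was higher in VMB than in PFC by 0.20 (adjusted p = 3.88e-05) and in NAc than in PFC by 0.13 (adjusted p = 0.00516, but 0.0165 with array weights and 0.0228 without the arrays that stood apart). NAc minus VMB was -0.07 (adjusted p = 0.141), and 0.37 as deposited. The probesets of Hdac7 therefore shared the sign of each normalized difference but differed in size, and the difference between them was not tested. Endothelial markers (9 of 10 tested) ranged between 6.00 and 6.36 in NAc, between 6.11 and 6.46 in VMB and between 5.96 and 6.36 in PFC, and their part in the Hdac7 differences was not tested.

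Hdac6, the class IIb member measured, was close to level across regions relative to other genes. Its normalized level lay between 7.86 and 8.44 in NAc, between 7.92 and 8.25 in VMB and between 7.86 and 8.16 in PFC. NAc minus PFC was -0.00 (95% CI -0.07 to 0.07, adjusted p = 0.990), VMB minus PFC was 0.05 (-0.03 to 0.12, adjusted p = 0.219) and NAc minus VMB was -0.05 (-0.12 to 0.02, adjusted p = 0.211). The signs of these small differences changed with the scaling. VMB minus PFC passed as deposited (0.11, adjusted p = 0.00210), NAc minus VMB passed with array weights (-0.09, adjusted p = 0.00518), and as deposited Hdac6 in NAc exceeded PFC by 0.66 and VMB by 0.55, near the shift of all probesets.

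Hdac11, the class IV enzyme, is abundant in brain and acts mainly as a remover of long fatty acyl groups. Its brighter probeset, 1451229_at, had levels of 8.82, 9.0 and 9.33 in NAc, 9.41, 9.61 and 9.85 in VMB, and 9.15, 9.30 and 9.50 in PFC. NAc and VMB did not overlap except as deposited, and 17 of 19 NAc arrays lay below every PFC array, whereas as deposited all 19 NAc arrays lay above every PFC array. Hdac11 was higher in VMB than in PFC by 0.32 (SE 0.04, adjusted p = 3.31e-10), and by 0.34 as deposited. It was lower in NAc than in VMB by 0.61 log2 units (95% CI -0.70 to -0.53, adjusted p = 8.02e-21) and lower in NAc than in PFC by 0.29 (adjusted p = 4.30e-09), whereas the deposited differences were 0.03 and 0.38, again short of the shift of all probesets.

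The other Hdac11 probeset, 1454803_a_at, did not follow this order. It lay between 8.02 and 8.72 in NAc, between 8.09 and 9.05 in VMB and between 7.95 and 8.44 in PFC, with overlap throughout. None of its differences passed: NAc minus PFC was 0.06 (adjusted p = 0.330), VMB minus PFC was 0.15 (adjusted p = 0.0118) and NAc minus VMB was -0.09 (adjusted p = 0.120), while as deposited all 3 were positive and passed (0.73, 0.21 and 0.51). The lower Hdac11 of NAc relative to PFC and VMB therefore rests on 1 of the 2 probesets and on the common scale.

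**Figure D2:**
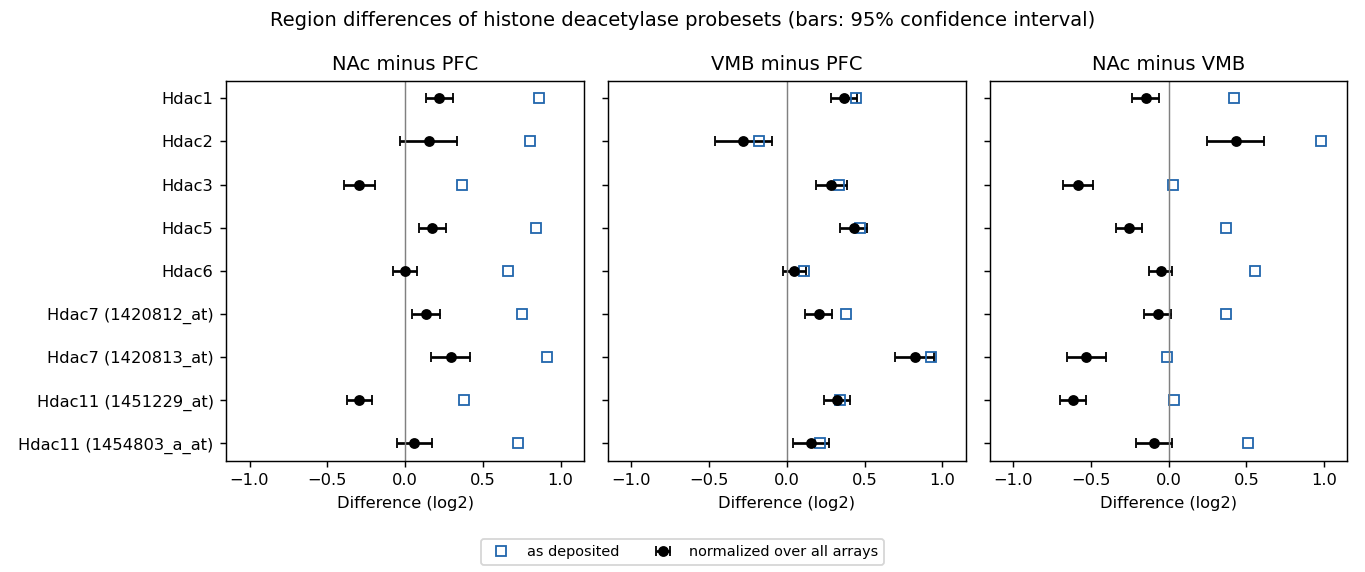
Difference between regions for each HDAC probeset (log2 units), with filled circles and bars for the normalized values and their 95% confidence interval from limma, and open squares for the deposited values (57 arrays). In VMB minus PFC the circles and squares lie close together, and in the comparisons with NAc the squares lie to the right by about the shift of all probesets (0.72 against PFC and 0.55 against VMB).

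Levels of cell type markers differed between regions beside these values. In bulk tissue, fewer cells of a type and less RNA per cell cannot be told apart. Oligodendrocyte markers (8 of 11 tested) ranged between 10.00 and 10.32 in NAc, between 10.83 and 11.16 in VMB and between 7.77 and 9.14 in PFC. All 8 were above PFC in both VMB and NAc, also as deposited. Astrocyte markers (all 9 tested) ranged between 8.54 and 8.90 in NAc, between 9.45 and 9.71 in VMB and between 8.79 and 9.08 in PFC, and microglia markers (all 9 tested) between 7.42 and 7.63 in NAc, between 7.0 and 7.34 in VMB and between 7.30 and 7.76 in PFC. Astrocyte markers went both ways, with 7 higher and 2 lower in VMB than in PFC, also as deposited. In NAc against PFC 2 were higher and 5 lower (7 and 2 as deposited). Of the microglia markers 0 were higher and 8 lower in VMB than in PFC (0 and 7 as deposited). In NAc against PFC 3 were higher and 4 lower (8 and 0 as deposited). Neuron markers (all 8 tested) ranged between 9.43 and 9.82 in NAc, between 9.73 and 10.35 in VMB and between 10.10 and 10.46 in PFC. Of these, 2 were higher and 5 lower in VMB than in PFC (3 and 4 as deposited). In NAc against PFC 0 were higher and 7 lower (4 and 1 as deposited). Of all probesets, 37.7% were higher and 35.2% lower in VMB than in PFC (52.2% and 24.2% as deposited). For NAc against PFC the shares were 38.6% and 33.9% (86.8% and 5.29% as deposited). The part of the cell type markers in the region differences of the HDACs was not tested.

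Within a region, HDAC genes were compared across the 19 mice on the deposited values, with the brighter probeset of each gene (21 pairs in each of 3 regions). Of the 63 correlations 6 passed (Benjamini-Hochberg adjusted permutation p under 0.05), 5 of them in NAc, 1 in VMB and none in PFC, where 1 pair had an unadjusted p under 0.05. The weakest of the 6 had an absolute r of 0.67, which was reached by 13.6% of all pairs of tested genes in NAc, 3.75% in VMB and 0.538% in PFC. With PC1 removed these shares were 1.06%, 1.82% and 0.566%, and that level was reached by 1 HDAC pair, in VMB, and by none in NAc. The pair with the largest correlation in NAc was Hdac2 and Hdac7, with Pearson r = -0.86 (adjusted p = 3.15e-04) and Spearman rho = -0.77 (adjusted p = 0.00588), and r = -0.84 without the 2 arrays farthest from the Hdac2 median. Mice with low Hdac2 had high signal of the brighter Hdac7 probeset (1420813_at) in NAc, and the 3 arrays that stood apart on PC1 were at that end of the relation. The dimmer Hdac7 probeset (1420812_at) was not tested against Hdac2 or any other HDAC gene. Without those 3 arrays r was -0.76 (adjusted p = 0.0306), and with PC1 removed it was -0.14 (adjusted p = 0.766).

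Hdac7 was also negatively related to Hdac3 (r = -0.73, rho = -0.77) and Hdac1 (r = -0.70, rho = -0.56) in NAc, and Hdac2 was positively related to Hdac3 (r = 0.73, rho = 0.74). The adjusted p of r was 3.15e-04, 0.0103 and 0.00913 for these 3 pairs, that of rho 0.00588, 0.116 and 0.00819, and r without the 2 farthest arrays was -0.76, -0.67 and 0.60. None of the 3 passed with PC1 removed, with r of -0.38, -0.20 and 0.37, or without arrays 1, 6 and 19, with r of -0.60, -0.71 and 0.55. Class I genes and Hdac7 thus lay at opposite ends of PC1 in NAc, with correlations to it of -0.71 for Hdac1, -0.93 for Hdac2, -0.68 for Hdac3 and 0.90 for Hdac7 (1420813_at). Hdac5, Hdac6 and Hdac11 (1451229_at) were less related to it, with -0.21, 0.39 and 0.28.

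Hdac6 and Hdac11 had a positive r in each region, which passed only in NAc. In NAc r was 0.67 (adjusted p = 0.0110, rho = 0.66, adjusted p = 0.0355), in VMB r was 0.56 (adjusted p = 0.0884, rho = 0.50, adjusted p = 0.168) and in PFC r was 0.46 (adjusted p = 0.221, rho = 0.43, adjusted p = 0.287). Without the 2 arrays farthest from the Hdac6 median, r was 0.51 in NAc, 0.35 in VMB and 0.25 in PFC. In NAc the pair did not pass without arrays 1, 6 and 19 (r = 0.48, adjusted p = 0.234) or with PC1 removed (r = 0.63, adjusted p = 0.0980).

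Hdac5 and the brighter Hdac11 probeset (1451229_at) varied together in VMB. The other Hdac11 probeset was not tested against Hdac5, and its r with 1451229_at in VMB was 0.23 (adjusted permutation p = 0.411). Their r was 0.84 (adjusted p = 6.30e-04) and rho 0.79 (adjusted p = 0.00588), and r was 0.75 without the 2 arrays farthest from the Hdac5 median. This was the only HDAC pair that passed both with PC1 removed (r = 0.86, adjusted p = 0.00126) and without the arrays that stood apart (r = 0.82, n = 13, adjusted p = 0.0306). The same pair had r = 0.38 in NAc and r = 0.34 in PFC, and the difference between regions was not tested. Hdac5 and Hdac11 lie on chromosomes 11 and 6. Their upstream sequences are shown because Hdac5 and this Hdac11 probeset varied together in VMB. The bases before each gene in its promoter window were taken from RefSeq (GRCm38.p6), for Hdac5 chr11:102230173-102230422 on the minus strand and for Hdac11 chr6:91156565-91156669 on the plus strand. Capitals mark matches on either strand to the GC box (GGGCGG) and to the CCAAT box (CCAAT), which do not overlap here.
Hdac5: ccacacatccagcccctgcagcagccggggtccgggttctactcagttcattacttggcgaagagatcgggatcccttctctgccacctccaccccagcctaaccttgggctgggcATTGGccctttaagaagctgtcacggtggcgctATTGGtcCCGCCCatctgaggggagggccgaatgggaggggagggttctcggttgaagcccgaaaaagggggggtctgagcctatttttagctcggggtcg
Hdac11: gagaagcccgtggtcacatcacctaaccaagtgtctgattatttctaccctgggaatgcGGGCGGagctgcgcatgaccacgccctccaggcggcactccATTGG
The 250 bases of Hdac5 held 1 GC box and 2 CCAAT boxes, and the 105 bases of Hdac11 held 1 of each. Of 32851 promoters, 32.7% held a GC box and 33.8% a CCAAT box in a window of 250 bases, and 11.1% and 14.3% did in the first 105 bases of that window. Those are the bases farthest from the start, whereas the 105 bases of Hdac11 directly precede its gene. Neither sequence held a TATA box (TATAAA), a CRE core (TGACG) or an E box (CACGTG) on either strand. A match is a description of the letters and not a binding site.

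**Figure D3:**
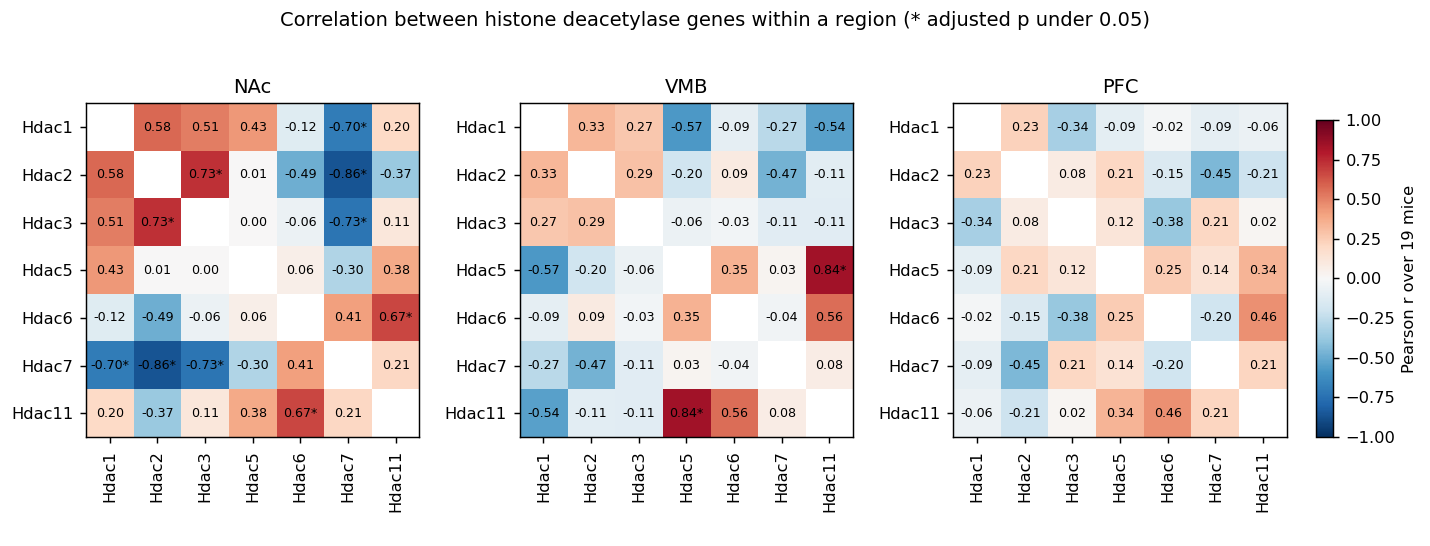
Pearson correlation between 7 HDAC genes within NAc, VMB and PFC (deposited values, 19 mice per region, brighter probeset of each gene), with colour from -1 to 1 and stars for adjusted permutation p under 0.05. There are 5 starred pairs in NAc, 1 in VMB (Hdac5 and Hdac11, 0.84) and none in PFC.

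Probesets of the same gene did not always vary together between mice. For Hdac7, 1420812_at and 1420813_at were positively related in NAc (r = 0.63, adjusted p = 0.00892 over 6 relations, rho = 0.59, r without the 2 farthest arrays 0.51). In VMB r was 0.46 (adjusted p = 0.0689, rho = 0.49). In PFC they were negatively related (r = -0.62, adjusted p = 0.00892, rho = -0.55, r without the 2 farthest arrays -0.44). The NAc relation fell to r = 0.04 with PC1 removed, and was 0.48 (adjusted p = 0.116) without arrays 1, 6 and 19, whereas the PFC relation was -0.64 with PC1 removed and -0.63 without arrays 3 and 14. The difference between regions was not tested. For Hdac11 the probesets were related in NAc (r = 0.74, adjusted p = 0.00186, rho = 0.79, r without the 2 farthest arrays 0.72), and r was 0.23 (adjusted p = 0.411) in VMB and 0.02 (adjusted p = 0.947) in PFC. Values of Hdac7 and Hdac11 between mice therefore depend on the probeset used.

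**Figure D4:**
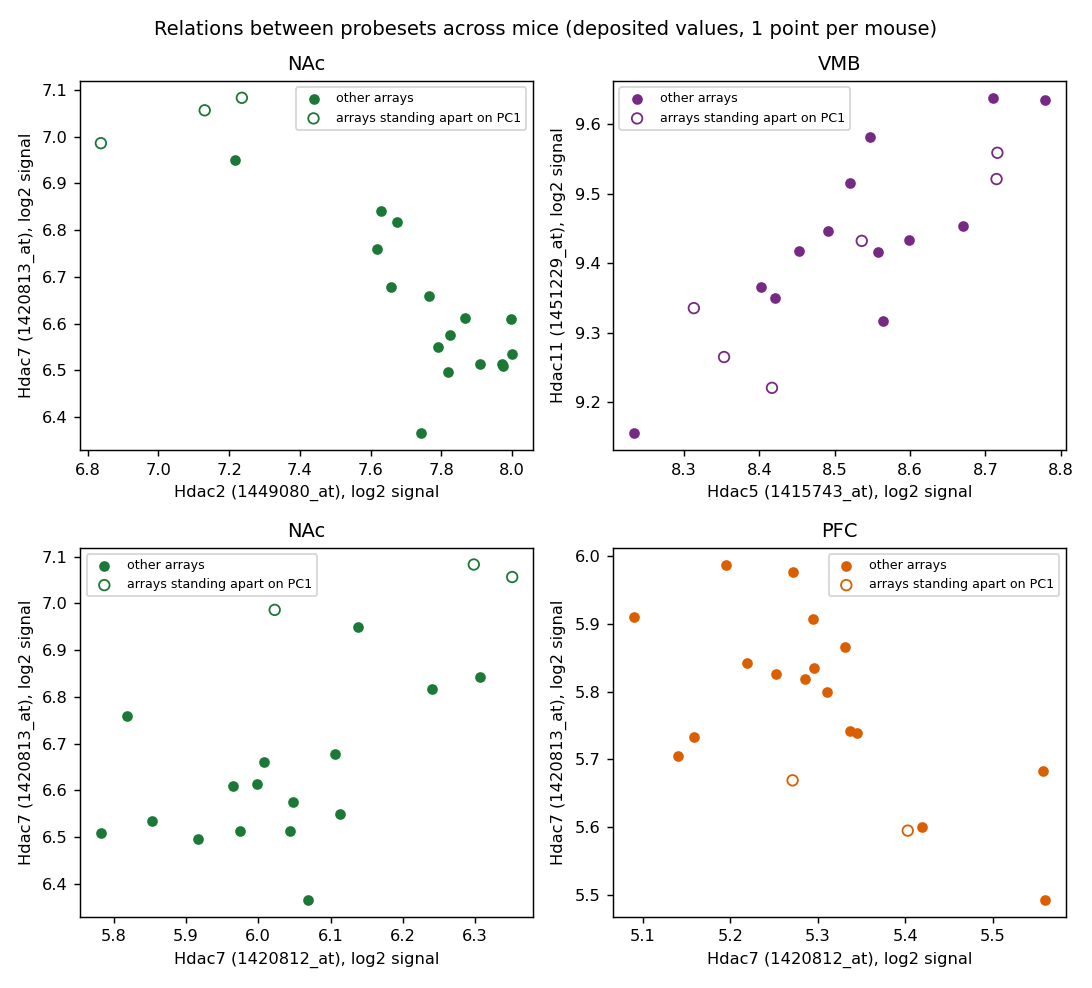
Pairs of HDAC probesets across mice (deposited log2 signal on both axes, 1 point per mouse, 19 per panel; open circles are arrays that stood apart on PC1). The panels show Hdac2 and Hdac7 in NAc (r = -0.86), Hdac5 and Hdac11 in VMB (r = 0.84), and the probesets of Hdac7 in NAc (r = 0.63) and in PFC (r = -0.62).

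HDAC levels of 1 region were not detectably related to those of another region over arrays with the same number in their titles. None of 27 relations (9 probesets, 3 pairs of regions) passed adjustment by the permutation test, by r or rho. None had an unadjusted p under 0.05 by r, and 1 had by rho (Hdac7 1420812_at in VMB and PFC, rho = 0.48, p = 0.0441, adjusted p = 0.690, with r = 0.32). The labels do not say that a number marks a mouse, so these are relations between arrays of the same number.

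The relation of the 7 HDAC genes to cell type markers within a region passed adjustment in none of 105 cases (permutation test), where 13 had an unadjusted p under 0.05, 11 of them in NAc. The closest was Hdac11 with neuron markers in NAc (r = -0.72, rho = -0.67, adjusted p = 0.0525, and r = -0.64 without the 2 farthest arrays). With PC1 removed, 3 relations passed, all with neuron markers and all negative: Hdac1 in NAc (r = -0.76, adjusted p = 0.00945), Hdac1 in VMB (r = -0.77, adjusted p = 0.00945) and Hdac11 in NAc (r = -0.71, adjusted p = 0.0210). Before that removal, r of Hdac1 with neuron markers was -0.003 in NAc and -0.45 in VMB. With PC1 kept but without the arrays that stood apart, none of the 3 passed the permutation test. There r was -0.31 for Hdac1 in NAc (adjusted p = 0.742), -0.69 for Hdac1 in VMB (adjusted p = 0.213) and -0.64 for Hdac11 in NAc (adjusted p = 0.213). The sign was not shared by all regions. With PC1 removed, r with neuron markers was 0.52 in VMB and 0.64 in PFC for Hdac11, and 0.06 in PFC for Hdac1. None of these passed. In PFC, where oligodendrocyte markers spread most between mice (SD 0.39), Hdac11 had r = 0.21 with them (adjusted p = 0.715).

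Genes that work with or against HDACs were described by lists, with the brighter probeset of each gene. The lists were not tested against the shares of all probesets. In VMB relative to PFC 37.7% of all probesets were higher and 35.2% lower, and as deposited 52.2% and 24.2%. For NAc relative to PFC these shares were 38.6% and 33.9%, and as deposited 86.8% and 5.29%. For NAc relative to VMB they were 39.0% and 35.7%, and as deposited 78.3% and 9.71%. Corepressor subunits that hold class I HDACs were measured for 23 of 28 genes. In VMB relative to PFC 4 of them were higher, 12 lower and 7 did not pass (median -0.14), and as deposited 6, 11 and 6. Relative to PFC, NAc had 11 higher and 9 lower, and 3 did not pass (median 0.08), and as deposited 18, 3 and 2. Relative to VMB, NAc had 15 higher and 7 lower, and 1 did not pass (median 0.36), and as deposited 19, 1 and 3. At the extremes, Gatad2b, a NuRD subunit, was lower in VMB than in PFC (difference -2.46, adjusted p = 1.89e-37) and in NAc than in PFC (-2.08, adjusted p = 3.18e-33), while its paralog Gatad2a was higher in VMB than in PFC (0.51, adjusted p = 3.55e-14).

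Partners of class II HDACs, namely Mef2 factors, 14-3-3 proteins and kinases that drive nuclear export, were measured for all 16 genes. In VMB relative to PFC 1 was higher, 12 lower and 3 did not pass (median -0.17), and as deposited 4, 10 and 2. In NAc relative to PFC 5 were higher, 8 lower and 3 did not pass (median -0.16), and as deposited 11, 2 and 3 (median 0.60). In NAc relative to VMB 8 were higher, 6 lower and 2 did not pass, and as deposited 15, 1 and 0. The kinase gene Camk2a had the lowest difference in both comparisons with PFC, at -4.78 for VMB (adjusted p = 2.76e-42) and -3.52 for NAc (adjusted p = 8.84e-35), and Mef2c the highest of NAc minus VMB at 2.55 (adjusted p = 3.42e-38). Hdac5 and Hdac7 were higher in VMB than in PFC on the same arrays on which 12 of 16 partner genes were lower (10 as deposited). Of all probesets, 35.2% were lower in that comparison (24.2% as deposited).

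Sirtuins, the NAD-dependent deacetylases, were measured for 5 of 7 genes. In VMB relative to PFC 2 were higher and 3 lower, also as deposited, with Sirt2, a cytoplasmic deacetylase of oligodendrocytes, at 1.11 (adjusted p = 3.87e-36) and Sirt1 at -0.81 (adjusted p = 2.22e-12). In NAc relative to PFC 2 were higher and 1 lower, and in NAc relative to VMB 3 were higher and 2 lower, while as deposited all 5 were higher in each of these. Histone acetyltransferases, which oppose HDACs, were measured for 10 of 14 genes. In VMB relative to PFC 3 were higher and 6 lower (3 and 4 as deposited), in NAc relative to PFC 3 were higher and 2 lower (10 and 0 as deposited) and in NAc relative to VMB 5 were higher and 4 lower (8 and 1 as deposited). Kat2b was the highest in VMB against PFC at 1.84 (adjusted p = 7.12e-37).

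For the 3 HDAC probesets with the widest range of region means, the probesets with the most similar normalized pattern over all 57 arrays were listed as a description. All such points share the region differences. Hdac7 (1420813_at) was closest to Col16a1 (r = 0.96), a collagen gene, then to Srsf2 and Cdr2l (0.93 each). Within regions the r of Hdac7 with Col16a1 was 0.88 in NAc, 0.73 in VMB and 0.35 in PFC. Hdac11 (1451229_at) was closest to Nucb1 (0.94), which encodes a calcium-binding Golgi protein and had r = 0.72 in NAc, 0.59 in VMB and 0.63 in PFC, followed by Pnkd and Tmbim6 (0.93 each). Hdac3 was closest to Ndufa4 (0.92), Dzip1 (0.91) and Ubfd1 (0.90), and its r with Ubfd1 within regions was 0.92 in NAc, 0.01 in VMB and 0.01 in PFC.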

How the data were processed

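Total RNA from 3 brain regions was measured on Affymetrix mouse genome arrays, 1 mouse per array (57 arrays, 19 per region by title). The deposited values are RMA signals on the log2 scale, made with GCOS and RMA per the submitters' processing notes, which give no version. No genome build applies to them. The number of arrays limits the precision.

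Probesets were named through the platform annotation, updated with RefSeq gene tables of GRCm38.p6. Of 22626 probesets 20380 had 1 symbol, 691 several and 1555 none. The deposited values were quantile normalized over all 57 arrays for region comparisons and used as deposited within a region. Probesets reaching 4.5 on at least 1 array were tested (19815), as in the filter of the study's methods, and 2811 were left out. Region differences were fitted with limma 3.58.1 (R 4.3.3) on all 57 arrays with p-values adjusted by Benjamini-Hochberg across the 19815 probesets, at the methods' 1% false discovery rate, and by limma's treat with a minimum difference of 0.5. The fit was tested on simulated data. Correlations used 100000 two-sided permutations (numpy 2.4.6) adjusted within each family, and the pairs number 21 per region because 7 member genes were measured.

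Named genes were all members, the extremes of each list per comparison, and the 3 closest probesets for the 3 members with the widest range. The members and lists were chosen with earlier results of these data known. Alternatives were the deposited values, subtracted array medians, other filters, a replicate block, array weights, 1 probeset per gene, leaving out the array with contradictory labels, Spearman's rho, and removal of PC1. Leaving out the arrays that stood apart on PC1, the Hdac2 minus Hdac1 description and the shares of all gene pairs were chosen after seeing the data.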

Additional observations from a re-analysis of the deposited data

How the results depend on the processing

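Scaling was the choice that moved most HDAC differences. As deposited, signs turned for NAc minus PFC in Hdac3 (0.37), Hdac6 (0.66) and Hdac11 1451229_at (0.38). For NAc minus VMB they turned in Hdac1 (0.42), Hdac3 (0.029), Hdac5 (0.37), Hdac6 (0.55), Hdac7 1420812_at (0.37), Hdac11 1451229_at (0.034) and 1454803_a_at (0.51). With array medians subtracted, signs turned for Hdac6 (0.043 for NAc minus PFC, -0.046 for VMB minus PFC, 0.089 for NAc minus VMB) and Hdac11 1454803_a_at (0.049 for NAc minus VMB). Over all probesets, the share of higher among called was 53.3% for NAc minus PFC, 51.7% for VMB minus PFC and 52.2% for NAc minus VMB, and as deposited 94.3%, 68.3% and 89.0%. Without the array with contradictory labels Hdac6 turned to 0.0045 for NAc minus PFC. Without the arrays that stood apart, Hdac11 1454803_a_at turned to -0.0030 for NAc minus PFC. With array weights 4 HDAC calls changed: Hdac2 in NAc minus PFC and Hdac6 in NAc minus VMB passed, and Hdac2 in VMB minus PFC and Hdac7 1420812_at in NAc minus PFC did not. Pairs of HDAC genes that passed numbered 6, but 1 with PC1 removed and 2 without the arrays that stood apart, and marker relations numbered 0, but 3 with PC1 removed. The causes were not tested. The region comparisons without a low-value filter, with a mean filter of 4.5 or with 1 probeset per gene kept the sign and side of the threshold of each HDAC difference.

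Same-numbered arrays deviated together only weakly (mean r 0.06 for NAc and PFC with 3 of 18 pairs over 0.1, 0.01 for VMB and PFC with 5, and 0.07 for NAc and VMB with 10), and 2, 1 and 2 arrays correlated best with their own number. With the number as a replicate block, 6, 7 and 6 HDAC probesets passed in NAc minus PFC, VMB minus PFC and NAc minus VMB, as without it, and no call or sign of an HDAC difference changed.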
